A study of Sus scrofa with 23 samples.

Results

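Messenger RNA of 7 glutamate receptor genes was followed in pig prefrontal cortex after saline or psilocybin. The genes were GRM2, GRM3, GRM5, GRM7 and GRM8, which encode metabotropic receptors, and GRIK2 and GRIK3, which encode kainate receptor subunits. They were taken by their pig Ensembl symbol from a table of 25880 genes, and all 7 had a single row there. All 7 also passed the filter on low counts that left 15049 genes for testing.

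The study asked how 1 dose of psilocybin changes gene expression in this tissue. Psilocybin is converted in the body to psilocin, an agonist of the 5-HT2A serotonin receptor. The animals were female adolescent Danish slaughter pigs of 20 kg without a genetic modification named in the labels. While awake and moving freely, each received 1 intravenous injection of 0.08 mg/kg psilocybin or of saline. Pentobarbital was given to all of them 1 day or 1 week later, and the whole brain was snap frozen. The groups were saline at 1 day (5 animals), psilocybin at 1 day (6 animals), saline at 1 week (6 animals) and psilocybin at 1 week (6 animals). A sixth saline animal at 1 day, which the design counts, was not analysed here. Each animal gave 1 poly-A selected library, with 9504421 to 18654626 assigned counts. The labels also name 2 batches without saying what they are. Batch 1 held 11 animals and batch 2 held 12, with 3 animals of every group in each, except 2 saline animals at 1 day in batch 1.

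Metabotropic glutamate receptors are G protein coupled receptors that tune synapses more slowly than the ion channel receptors do. Group I receptors such as mGlu5 (GRM5) couple to Gq and phospholipase C and lie mostly beside the postsynaptic density. Group II (mGlu2 and mGlu3, from GRM2 and GRM3) and group III receptors (among them mGlu7 and mGlu8, from GRM7 and GRM8) couple to Gi/o proteins, lower cyclic AMP and reduce transmitter release. mGlu2 is mainly presynaptic in cortex and has been studied together with the 5-HT2A receptor, whereas mGlu3 is also made by astrocytes. Kainate receptors are glutamate-gated channels: GluK2 (GRIK2) and GluK3 (GRIK3) can form channels alone, while GRIK4 and GRIK5 encode high-affinity partners, and NETO1 and NETO2 encode auxiliary proteins.

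The genes lie on 5 chromosomes of the pig assembly susScr11, and the positions given here are the span of the exons in the count table. GRM5 (ENSSSCG00000029865) spans chr9:21918736-22438208 on the minus strand, and GRM3 (ENSSSCG00000015395) spans chr9:93731212-93973543 on the same strand. GRM2 (ENSSSCG00000011423) spans chr13:33926602-33941867 and GRM7 (ENSSSCG00000023891) spans chr13:63596320-64205881, both on the plus strand. GRM8 (ENSSSCG00000022865) spans chr18:20951003-21758168 on the plus strand. Of the kainate genes, GRIK2 (ENSSSCG00000004361) spans chr1:68289343-68679256 on the plus strand and GRIK3 (ENSSSCG00000003640) spans chr6:92886610-93128582 on the minus strand. The spans of GRM5 and GRM8 each overlap 1 other annotated gene, those of the other 5 do not, and 0 of the 7 share exon bases with another gene. Between 4.35% and 65.2% of a gene's values were not whole numbers, and the source of these fractions was not tested.

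To compare genes with each other, levels were divided by exon length and are given as CPM per kb of exon, where CPM is a gene's count scaled to a common library total. GRM3 was the most abundant of the 7, at 25.2 ± 3.55 CPM per kb (SD, n = 23), with a range of 17.0 to 32.0. GRM5 followed at 11 ± 4.82, GRIK2 at 8.62 ± 1.38, GRM2 at 4.03 ± 0.59 and GRM7 at 3.31 ± 0.569 CPM per kb. The lowest were GRM8 at 2.69 ± 0.534 and GRIK3 at 1.94 ± 0.996 CPM per kb. In all 23 animals GRM3 was above GRM5, and GRIK2 was above GRM2. In CPM, before division by length, the means were 26.4 for GRIK2, 28.4 for GRM2 and 34.7 for GRM7. The order of these genes thus rests on the annotated exon lengths. The neighbours GRM5 and GRIK2 were in that order in 14 of 23 animals and were not separated beyond their spread. GRM2 was above GRM7 in 21 animals, GRM7 above GRM8 in 19, and GRM8 above GRIK3 in 19.

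**Figure D1:**
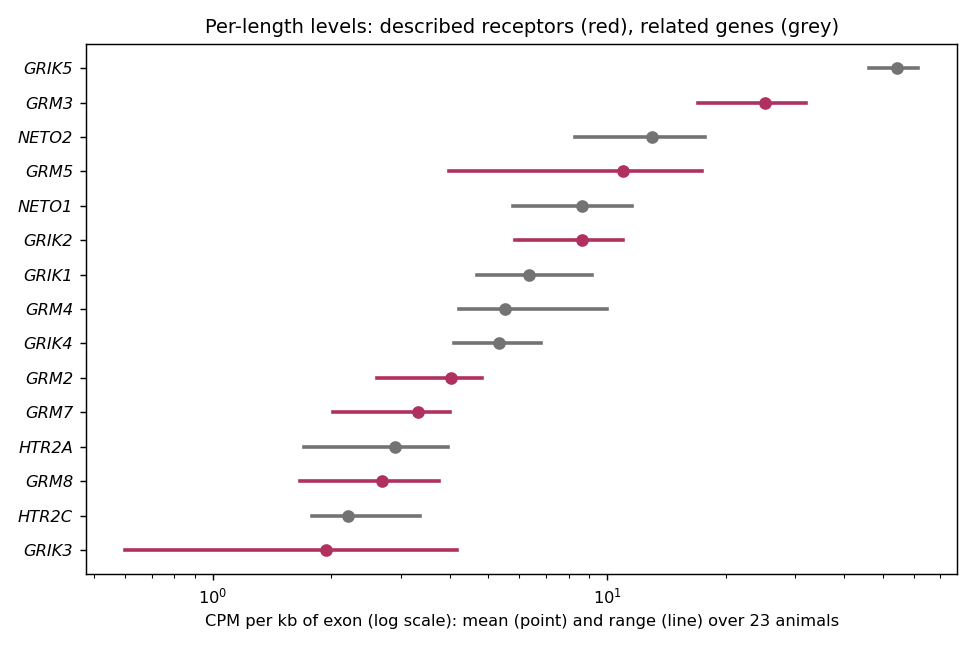
Per-length level of the 7 receptor genes (red) and of related genes (grey), in CPM per kb of exon on a log axis. Points are means and lines the range over 23 animals; GRM3 at 25.2 leads the 7 and GRIK3 at 1.94 is the lowest, with a range that is wide for its level.

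The classes were uneven on the per-length scale. In group II, GRM3 was 6.39 ± 1.43 times GRM2 (SD, n = 23; 4.67 to 10.2). In CPM, before division by length, their means were 108 and 28.4. In group III, GRM4 lay above both GRM7 and GRM8: the ratio of GRM7 to GRM4 was 0.618 ± 0.13 and exceeded 1 in 0 of 23 animals. In CPM the mean of GRM7 (34.7) was above that of GRM4 (19). Their order per length thus rests on annotated exon lengths of 10468 and 3453 bases. The fourth group III gene, GRM6, whose receptor acts in retinal bipolar cells, had 0 to 5 counts per library and was not tested. Among kainate subunits GRIK5 was the highest at 54.4 ± 3.62 CPM per kb, 6.51 ± 1.31 times GRIK2. GRIK2 was 5.91 ± 3.86 times GRIK3, with a range over animals from 1.85 to 18.1. GRIK1 was at 6.34 and GRIK4 at 5.32 CPM per kb, and the auxiliary genes NETO2 and NETO1 were at 13 and 8.64. In CPM the mean of GRIK4 (30.5) was above those of GRIK1 (24.5) and GRIK2 (26.4), and NETO1 (37.1) was above NETO2 (27.5). These orders thus also rest on the annotated exon lengths.

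The 7 genes varied unequally between animals, measured by the coefficient of variation of their CPM. GRIK3 had a coefficient of variation of 51.4% and GRM5 of 43.7%, which put them at the 96.8th and 93.8th percentile of all genes tested. The other 5 lay between 14.1% (GRM3) and 19.8% (GRM8). From the lowest to the highest animal GRIK3 spanned 6.92-fold and GRM5 4.38-fold, against 1.84-fold to 2.25-fold for the other 5. GRIK3 also rested on the fewest counts, 22 to 262 per library.

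No gene of the 15049 passed an adjusted p under 0.05 in edgeR's quasi-likelihood test between treatment or time groups. The share called was 0% for the psilocybin groups against their saline controls at 1 day and at 1 week, for the difference between these effects and for their average. It was also 0% for 1 week against 1 day after saline and after psilocybin. Before adjustment, 2.83% of genes had a p under 0.05 at 1 day, 1.99% at 1 week, 2.02% for the difference, 3.04% for the average, 2.01% for time after saline and 3.18% for time after psilocybin. DESeq2 and limma-voom also called 0 of the 7 receptor genes in each of these comparisons. The average shares its animals with the comparisons at each time, as do the time comparisons. What follows gives each receptor gene's level by animal and the interval of its difference. In bulk tissue, fewer cells of a type and less RNA per cell cannot be told apart.

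Among group I receptors, GRM5 showed wide and overlapping groups. In the saline group at 1 day the 5 animals had 25.0, 30.8, 34.7, 79.6 and 80.3 CPM. With psilocybin at 1 day GRM5 ran from 18.8 to 75.1 CPM with a median of 55.7 (n = 6). At 1 week it ran from 18.3 to 76.5 CPM (median 38.5) after saline and from 19.8 to 78.1 CPM (median 61.6) after psilocybin, n = 6 each. Every group held both low and high animals, and the low values came mostly from batch 1. The log2 difference of psilocybin from saline was 0.18 ± 0.25 (SE; 95% interval -0.33 to 0.69) at 1 day and 0.40 ± 0.24 (-0.09 to 0.88) at 1 week, both with an adjusted p of 1 (edgeR). Without saline animal 5 at 1 day, a library that stood apart, the 1 day value was 0.03, and without saline animal 4 it was 0.30. Without psilocybin animal 2 at 1 week the 1 week value was 0.26. Within batches the 1 week difference was 0.36 in batch 1 and 0.44 in batch 2. Here and below, values within batches are differences of mean log2 CPM. They can differ from the edgeR fits to each batch alone given at the end.

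GRM2 overlapped between all groups. The 5 saline animals at 1 day had 18.4, 22.9, 26.8, 31.0 and 33.9 CPM, and 1 day after psilocybin GRM2 ran from 25.2 to 31.5 CPM (median 29.1, n = 6). All 6 psilocybin values lay inside the range of the saline animals. At 1 week it ran from 22.6 to 33.7 CPM (median 31.6, n = 6) after saline and from 22 to 30.8 CPM (median 29.4, n = 6) after psilocybin. The log2 difference was 0.13 ± 0.13 (SE; -0.14 to 0.41) at 1 day and -0.09 ± 0.12 (-0.35 to 0.17) at 1 week, with an adjusted p of 1 at both times (edgeR). At 1 week the batches differed in sign, with 0.11 in batch 1 and -0.28 in batch 2. At 1 day the value of GRM2 was 0.02 without saline animal 5, whose 18.4 CPM was the lowest of all 23, and 0.23 without saline animal 4. Leaving out psilocybin animal 6 at 1 week gave -0.01 for GRM2, and leaving out saline animal 1 gave -0.14.

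GRM3 had the narrowest intervals of the 7 genes. The saline animals at 1 day had 87.7, 102, 114, 117 and 118 CPM, and psilocybin animals ran from 89.8 to 125 CPM (median 110, n = 6). At 1 week GRM3 ran from 92.9 to 123 CPM (median 102, n = 6) after saline and from 72.7 to 137 CPM (median 112, n = 6) after psilocybin, whose range enclosed that of saline. The log2 difference was 0.05 ± 0.08 (SE; -0.13 to 0.22) at 1 day and 0.06 ± 0.08 (-0.10 to 0.22) at 1 week (edgeR adjusted p of 1 at both). These intervals leave out log2 differences beyond 0.22 in either direction.

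The group III genes also overlapped between treatments. In the saline animals at 1 day GRM7 was at 23.5, 30.7, 37.6, 37.8 and 38.7 CPM, and 1 day after psilocybin it ran from 29.5 to 40.3 CPM (median 35.1, n = 6). At 1 week it ran from 21.2 to 41.7 CPM (median 36.4, n = 6) after saline and, after psilocybin, from 22.2 to 40.2 CPM (median 37.8, n = 6). The 3 lowest values, 21.2, 22.2 and 23.5 CPM, belonged to saline animal 1 at 1 week, psilocybin animal 6 at 1 week and saline animal 5 at 1 day. The log2 difference of GRM7 was 0.05 ± 0.16 (SE; -0.29 to 0.38) at 1 day and 0.02 ± 0.15 (-0.30 to 0.34) at 1 week (edgeR adjusted p of 1 at both).

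GRM8 was at 11.1, 11.5, 14.4, 17.9 and 19 CPM in the saline animals at 1 day, and ran from 11.9 to 18.9 CPM (median 14.4, n = 6) after psilocybin. At 1 week it ran from 9.46 to 15.4 CPM (median 13.7, n = 6) after saline and from 8.44 to 14.5 CPM (median 12.2, n = 6) after psilocybin. The highest 1 week value lay below the highest of either 1 day group, but the groups overlapped. The psilocybin difference of GRM8 was 0.02 ± 0.14 (SE; -0.27 to 0.30) at 1 day and -0.11 ± 0.14 (-0.39 to 0.17) at 1 week on the log2 scale, and the adjusted p was 1 at both times (edgeR). Its change with time after psilocybin was -0.26 ± 0.14 (-0.54 to 0.02), with an adjusted p of 0.999 by the same test. Within batches that value was -0.33 in batch 1 and -0.16 in batch 2.

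Of the kainate subunits, GRIK2 was at 18, 24, 26.9, 28.6 and 33.6 CPM 1 day after saline and ran from 21.2 to 30.8 CPM (median 27.3, n = 6) after psilocybin. At 1 week it ran from 18.2 to 33.4 CPM (median 25.9, n = 6) after saline and from 22.3 to 32.7 CPM (median 25.5, n = 6) after psilocybin. At both times the psilocybin values lay inside the saline range. The log2 difference of GRIK2 was 0.04 ± 0.14 (SE; -0.26 to 0.34) at 1 day and 0.03 ± 0.14 (-0.25 to 0.32) at 1 week, with an adjusted p of 1 (edgeR).

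GRIK3 had the largest differences of the 7, with wide intervals. The saline animals at 1 day had 3.01, 3.83, 5.66, 7.84 and 8.43 CPM, and the psilocybin animals ran from 2.95 to 13.4 CPM (median 5.85, n = 6). At 1 week GRIK3 ran from 1.93 to 13.1 CPM (median 4.38, n = 6) after saline and from 2.99 to 10.9 CPM (median 6.83, n = 6) after psilocybin. The single highest animals were psilocybin animal 4 at 1 day and saline animal 5 at 1 week, so the extremes were not on 1 side. The log2 difference of GRIK3 was 0.33 ± 0.26 (SE; -0.21 to 0.87) at 1 day and 0.46 ± 0.25 (-0.05 to 0.98) at 1 week (edgeR adjusted p of 1 at both). Averaged over both times it was 0.40 ± 0.18 (0.02 to 0.77), with an unadjusted p of 0.0378 and an adjusted p of 0.998 by the same test. Leaving out saline animal 5 at 1 week moved the 1 week value of GRIK3 to 0.77, and leaving out psilocybin animal 2 at 1 week moved it to 0.32. At 1 day it was 0.16 without psilocybin animal 4. The 1 week difference of mean log2 CPM was 0.84 within batch 1 and 0.25 within batch 2. The edgeR fits to each batch alone gave 0.88 and 0.14.

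Within batches 1 and 2 the 1 day differences were 0.14 and 0.28 for GRM5, 0.24 and 0.08 for GRM2, 0.02 and 0.06 for GRM3, 0.07 and 0.06 for GRM7 and 0.20 and 0.33 for GRIK3. GRM8 (0.10 and -0.05) and GRIK2 (-0.02 and 0.10) had opposite signs in the batches at that time. At 1 week GRM3 (-0.04 and 0.14), GRM7 (0.25 and -0.19) and GRIK2 (0.13 and -0.04) also had opposite signs, and GRM8 was at -0.08 and -0.14. So GRM5 and GRIK3 were positive in both batches at both times, and GRM2, GRM3, GRM7, GRM8 and GRIK2 changed sign between batches at 1 day or at 1 week. The related genes GRIK4 (0.08 and 0.18 at 1 day, 0.20 and 0.08 at 1 week) and GRIK5 (0.14 and 0.13, 0.13 and 0.02) were positive throughout too. GRM4, GRIK1, NETO1 and NETO2 were not. The share of all genes with this pattern was not computed.

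**Figure D2:**
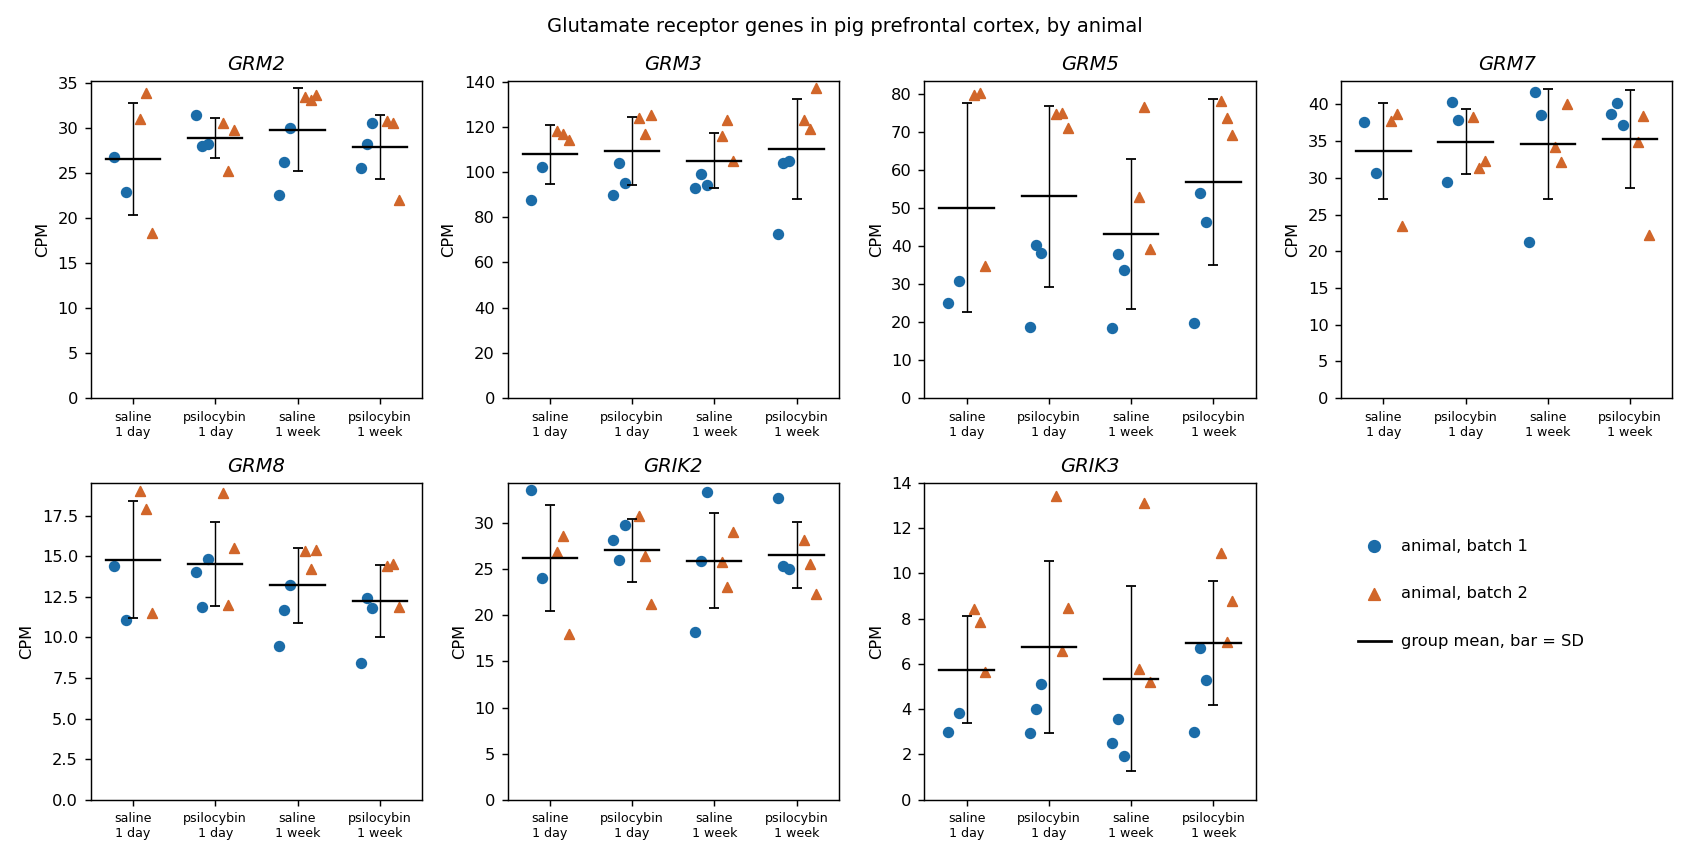
Level in CPM of each of the 7 genes by animal in the 4 groups (CPM axes start at 0; circles batch 1, triangles batch 2; line and bar are group mean and SD). Groups overlap for every gene, while for GRM3, GRM5 and GRIK3 the triangles sit mostly above the circles.

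Taking the 7 genes as a list, 7 had a positive log2 difference at 1 day, with a median of 0.05, and 51.4% of all genes tested did, with a median of 0.00. Without saline animal 5 at 1 day, GRM7, GRM8 and GRIK2 were negative at 1 day, at -0.05, -0.08 and -0.06. At 1 week 5 of 7 were positive, with a median of 0.03, beside 48.8% of all genes. The difference between the effects at 1 week and 1 day ran from -0.22 (GRM2) to 0.22 (GRM5), with edgeR adjusted p of 1 for each gene. Saline animals at 1 week differed from those at 1 day by -0.13 (GRM8) to 0.17 (GRM2) on the log2 scale, all with an adjusted p of 1. In none of the 7 genes did the psilocybin and saline animals separate at either time. Across all genes, 0.126% had groups that did not overlap in CPM at 1 day and 0.0465% at 1 week.

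Receptor genes passed the test between the batches. In edgeR's test, 4 of the 7 genes were called between batch 2 and batch 1, all higher in batch 2, where 32.9% of all genes tested were called in either direction. GRIK3, the lowest of the 7 in level, was higher in batch 2 by 1.19 ± 0.18 (log2, SE; adjusted p = 0.000164). In CPM it ran from 1.93 to 6.70 (median 3.55, n = 11) in batch 1 and from 5.20 to 13.4 (median 8.14, n = 12) in batch 2, and 8 of the 12 lay above the highest animal of batch 1. GRM5 was higher by 1.04 ± 0.17 (adjusted p = 0.000247), with medians of 33.7 and 74.2 CPM, and 9 of 12 batch 2 animals exceeded the highest of batch 1. GRM3 was higher by only 0.33 ± 0.06 (adjusted p = 0.000302), but its batches did not overlap in CPM: the highest animal of batch 1 had 104.6 and the lowest of batch 2 had 105.0. Of all genes, 0.545% separated the batches in this way. GRM8 was higher by 0.31 ± 0.10 (adjusted p = 0.0181), with 6 of 12 animals above batch 1.

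The other 3 genes were not called between batches. GRM2 differed by 0.11 ± 0.09 (adjusted p = 0.343), GRM7 by -0.08 ± 0.11 (0.596) and GRIK2 by -0.11 ± 0.10 (0.423) on the log2 scale (edgeR). Without 3 libraries that stood apart, GRM2 was called as well, at 0.19 with an adjusted p of 0.0278. Because batch was crossed with the groups and kept as a term, the psilocybin differences above compare animals of the same batch.

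**Figure D3:**
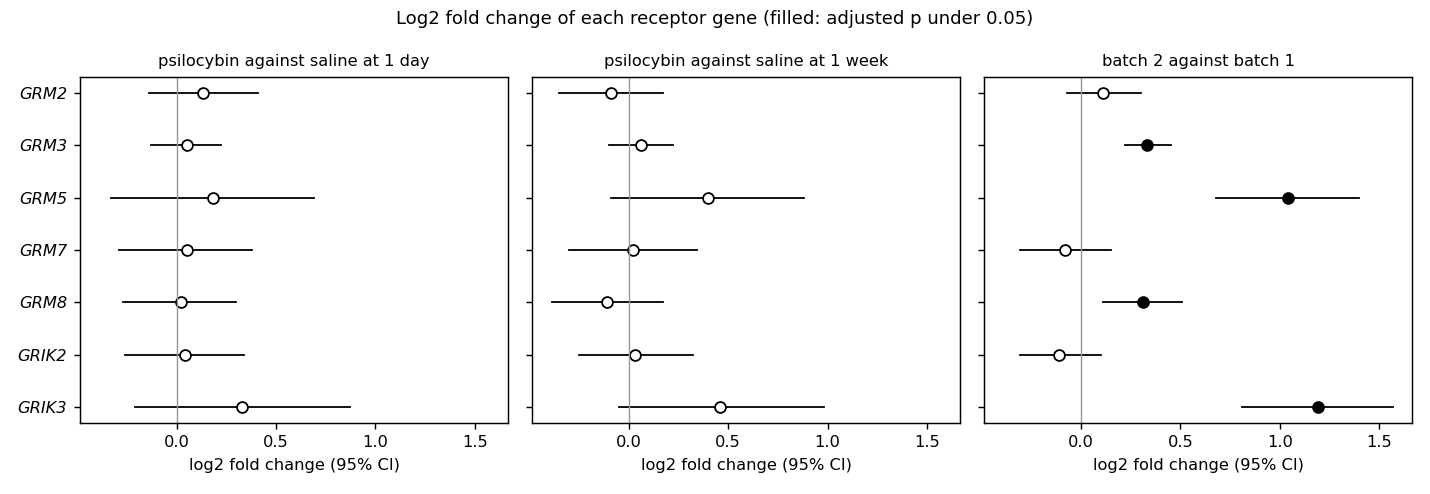
Log2 difference of each gene with its 95% interval between psilocybin and saline animals (1 day, 1 week) and for batch 2 against batch 1; filled points have an adjusted p under 0.05. All 14 psilocybin intervals include 0, and GRM3, GRM5, GRM8 and GRIK3 lie to the right of 0 between batches.

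Several features of the libraries moved with batch as well. The mitochondrially encoded share had a median of 13.8% in batch 1 and 11.1% in batch 2. Of 9 excitatory neuron markers 6 were called higher in batch 2 and 0 were called lower (32.9% of all genes were called), and their summed level ran from 1236 to 1654 CPM in batch 1 and from 1405 to 2016 in batch 2. Of 9 microglia markers 9 were called lower in batch 2, with sums of 257 to 397 CPM in batch 1 and 163 to 325 in batch 2. All 3 blood genes tested were called lower too, with sums of 21.8 to 496 CPM and 11.6 to 75.6 CPM. Their part in the batch difference of GRM3, GRM5, GRM8 and GRIK3 was not tested. All 9 excitatory and all 9 inhibitory neuron markers had counts in every library. So did 5 striatal neuron, 9 astrocyte and 9 microglia markers, so such counts do not tell cortex from other brain tissue.

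Once the group and batch terms were taken out, many of the receptor genes varied together between animals. These correlations are of log2 CPM over 23 animals, with p from 100000 permutations within batch, adjusted over 21 pairs. The permutations did not allow for the group and batch terms already fitted, which tends to make p too small. Pairs with an adjusted p near 0.05 may therefore not hold. Of the 21 pairs 11 had an adjusted p under 0.05 for Pearson's r, all positive and of the same sign in both batches, and 7 had it for Spearman's rho. The most negative r was that of GRM3 with GRIK2, at -0.42 (adjusted p = 0.11; rho = -0.50, adjusted p = 0.053; permutation test). Within batches the r of GRM3 with GRIK2 was -0.48 and -0.33, and without the 3 libraries that stood apart -0.58. The closest pair was GRM2 and GRM8 (r = 0.82, p = 5e-05, adjusted p = 0.001; rho = 0.70, p = 0.00036, adjusted p = 0.0076; permutation test). It held without the 2 animals farthest from the median of GRM2 (r = 0.78) and within batches (0.76 and 0.87). Both encode receptors that act through Gi/o, as do GRM3 and GRM7. For GRM7, r was 0.74 with GRM2 and 0.63 with GRM8. For GRM3, r was -0.08 with GRM2, -0.15 with GRM7 and 0.20 with GRM8.

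GRM3, GRM5 and GRIK3 varied together. GRM3 and GRM5 had r = 0.68 (p = 0.00046, adjusted p = 0.0024; rho = 0.60, p = 0.0043, adjusted p = 0.018; permutation test), and 0.69 without the 2 farthest animals. GRM5 and GRIK3 had r = 0.65 (p = 0.00094, adjusted p = 0.0039; rho = 0.65, p = 0.0017, adjusted p = 0.018), and 0.58 without the 2 farthest animals. GRM3 and GRIK3 had r = 0.54 (p = 0.0052, adjusted p = 0.014; rho = 0.63, p = 0.0025, adjusted p = 0.018), and 0.60 without them. Within batches 1 and 2 the r of these pairs was 0.80 and 0.40, 0.71 and 0.61, and 0.66 and 0.44. GRM5 was also related to GRM7 (r = 0.50, p = 0.018, adjusted p = 0.034; rho = 0.46, p = 0.028, adjusted p = 0.053; permutation test) and to GRM8 (r = 0.49, p = 0.018, adjusted p = 0.034; rho = 0.44, p = 0.04, adjusted p = 0.07). These became 0.57 and 0.51 without the 2 farthest animals, and were 0.58 and 0.41 for GRM7 and 0.50 and 0.50 for GRM8 within batches. GRM3, GRM5 and GRIK3 were all called higher in batch 2, a difference that the batch term had removed from these values.

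GRM7 and GRIK2 (r = 0.73, p = 0.00028, adjusted p = 0.0023; rho = 0.58, p = 0.0051, adjusted p = 0.018; permutation test) and GRM2 and GRM7 (r = 0.74, p = 0.00033, adjusted p = 0.0023; rho = 0.48, p = 0.027, adjusted p = 0.053) also varied together over all animals. Without the 2 farthest animals these became 0.64 and 0.58. Within batches they were 0.67 and 0.80 for GRM7 with GRIK2, and 0.51 and 0.90 for GRM2 with GRM7. Much of this rested on 3 libraries: saline animal 5 at 1 day, saline animal 1 at 1 week and psilocybin animal 6 at 1 week. On the leading principal component of all genes, which held 21.3% of the variance, these 3 had the highest scores (40.06, 37.75 and 28.34). Without them r was 0.44 for GRM7 with GRIK2, 0.28 for GRM2 with GRM7 and 0.24 for GRM2 with GRIK2, which had 0.64 over all 23. GRM2 with GRM8 was then at 0.74, GRM3 with GRM5 at 0.82, GRM5 with GRIK3 at 0.63, GRM3 with GRIK3 at 0.60, GRM5 with GRM7 at 0.30 and GRM5 with GRM8 at 0.28. GRM7 with GRM8 went from 0.63 over all 23 to 0.41, and GRM8 with GRIK2 from 0.57 to 0.27.

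**Figure D4:**
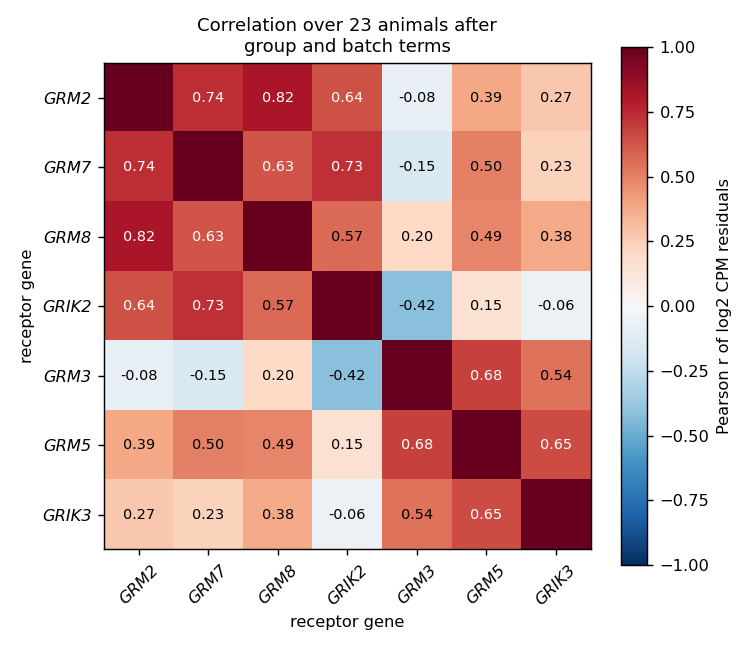
Pearson r between the 7 genes over 23 animals, from log2 CPM after group and batch terms. Among GRM2, GRM7, GRM8 and GRIK2 r runs from 0.57 to 0.82, and among GRM3, GRM5 and GRIK3 from 0.54 to 0.68, while GRM5 also has 0.50 with GRM7 and 0.49 with GRM8; r among the former 4 genes is lower without the 3 libraries named in the text.

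The receptor genes also moved with library features, given here as r over the 23 animals after group and batch terms. GRM7 had r = -0.86 with the leading component, GRM2 -0.66, GRM5 -0.64, GRIK2 -0.61 and GRM8 -0.57, whereas GRM3 had -0.01. Spearman's rho was -0.61 for GRM7, -0.38 for GRM2, -0.63 for GRM5, -0.39 for GRIK2 and -0.50 for GRM8. The 3 libraries that stood apart had the highest scores on this component, and r without them was not tested. With the mean level of 9 excitatory neuron markers, GRM5 had r = 0.83 and GRM3 and GRIK3 had 0.74 each, followed by GRM8 at 0.58. With 5 endothelial and mural cell markers GRM2 and GRM7 had r = 0.73 each, GRIK2 0.57 and GRM8 0.51. For these markers rho was 0.56 for GRM2, 0.52 for GRM7, 0.32 for GRIK2 and 0.30 for GRM8. With the mitochondrial share GRIK3 had -0.69, GRM5 -0.63 and GRM3 -0.54. With 9 astrocyte markers GRIK2 had -0.72, GRM8 -0.56 and GRM2 -0.54, while GRM3, which astrocytes also make, had 0.31. The part of these features in the correlations between receptor genes was not tested.

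For each receptor gene the 3 genes with the most similar course over the animals were found by the same r among all genes tested with a symbol. The median r over these genes lay between -0.01 (GRIK3) and 0.07 (GRM7). As the highest of 12495 genes, the r below are high by selection. GRM5 had the closest companions: DLGAP2, a postsynaptic scaffold gene, at 0.98, ZMIZ1 at 0.96 and the ephrin receptor gene EPHA5 at 0.95. GRM7 was most like the semaphorin and plexin genes SEMA4C (0.94) and PLXNA3 (0.93) and the phosphatase gene PTPN23 (0.93), which were at 0.78, 0.75 and 0.77 without the 3 libraries. GRM3 was most like OLFM3, KIFBP (both 0.92) and KLHL9 (0.88). GRM2 was most like NCAM1 (0.88), a neural adhesion gene, C6orf89 (0.87) and the dynein gene DYNC1H1 (0.86), which were at 0.66, 0.73 and 0.53 without the 3 libraries. GRM8 was most like GRIA2 (0.87), an AMPA receptor subunit gene, LRRTM2 (0.85), a synaptic adhesion gene, and MFSD6 (0.85). GRIK2 was most like MAST1, ATXN2L and EXOSC10, each at 0.89, which were at 0.79, 0.78 and 0.82 without the 3 libraries. GRIK3 had the loosest companions, TTPAL, ZNF436 and PRICKLE1, each at 0.81.

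Of the related receptor genes and partners, 0 were called for psilocybin at either time (edgeR). Of 6 tested receptor and auxiliary genes of the same families, 3 were higher at 1 day and 5 at 1 week, with median log2 differences of 0.05 and 0.09. The smallest p at 1 day was that of GRM4, at 0.31 ± 0.15 (SE; 0.01 to 0.61; unadjusted p = 0.0443, adjusted p = 1), which was 0.01 ± 0.14 at 1 week. At 1 day GRM4 ran from 14.8 to 19.2 CPM (median 17.1, n = 5) after saline and from 16.3 to 34.5 (median 19.9, n = 6) after psilocybin. The 34.5 CPM of psilocybin animal 1 was the highest of all 23, and its weight in the difference was not tested. GRIK5 was at 0.13 ± 0.06 at 1 day and 0.08 ± 0.06 at 1 week, and NETO1 was at -0.02 ± 0.10 and 0.19 ± 0.09. GRIK1, GRIK4 and NETO2 were at -0.05, 0.12 and -0.02 at 1 day and at 0.11, 0.15 and -0.00 at 1 week. Between batches NETO1 (0.51) and NETO2 (0.31) were called higher in batch 2 and GRIK1 (-0.31) lower.

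Of 17 tested genes of group I signalling (Gq proteins, phospholipase C, Homer and Shank scaffolds), 11 were higher at 1 day and 13 at 1 week, with medians of 0.06 and 0.05, and 0 were called. Those with the smallest p were HOMER2 (-0.14 ± 0.10) and GNA11 (0.09 ± 0.07) at 1 day and SHANK2 (0.34 ± 0.20) and ITPR2 (0.30 ± 0.19), an IP3 receptor gene, at 1 week. Of 19 tested genes of Gi/o signalling, 15 and 12 were higher, with medians of 0.06 and 0.02, and 0 were called. Here GNAI3 (-0.10 ± 0.07) and KCNJ6 (0.28 ± 0.21), a G protein gated potassium channel gene, had the smallest p at 1 day, and GNAZ (-0.18 ± 0.10) and the adenylyl cyclase gene ADCY1 (0.58 ± 0.34) at 1 week. ADCY1 was also higher in batch 2 by 1.20 ± 0.25 (adjusted p = 0.00152). All values are log2 differences with SE.

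Among 12 tested genes that supply or clear glutamate, 11 were higher at 1 day and 5 at 1 week, with medians of 0.08 and -0.04, and 0 were called. SLC1A4, a neutral amino acid transporter gene, was at 0.23 ± 0.09 (unadjusted p = 0.0172) and SLC17A6, the vesicular transporter VGLUT2, at -0.24 ± 0.10 (0.0343) at 1 day. At 1 week SLC1A2, the main glial glutamate uptake carrier, was at 0.67 ± 0.27 (unadjusted p = 0.0198) and the glutamine carrier gene SLC38A1 at 0.46 ± 0.21 (0.0382), all with an edgeR adjusted p of 1. SLC1A2 ran from 73.3 to 727 CPM over the animals and was higher in batch 2 by 1.54 ± 0.20 (adjusted p = 5.96e-05). The 3 tested genes of the mGlu3 agonist N-acetylaspartylglutamate included NAALAD2, at 0.26 ± 0.25 at 1 day and -0.18 ± 0.24 at 1 week. RIMKLB was at -0.09 ± 0.11 at 1 day and NAT8L at 0.07 ± 0.08 at 1 week.

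The 5-HT2A receptor gene HTR2A, the target of psilocin, stood at 2.90 CPM per kb of exon, between GRM7 and GRM8. Its log2 difference was -0.23 ± 0.21 (SE; -0.66 to 0.20) at 1 day and -0.11 ± 0.20 (-0.52 to 0.30) at 1 week, with an edgeR adjusted p of 1. HTR2C was at 2.20 CPM per kb, with differences of -0.10 and -0.03, and HTR2B had 0 to 6 counts per library and was not tested. GRM2 was above HTR2A in 22 of 23 animals on the per-length scale, with a ratio of 1.48 ± 0.486 (SD, n = 23). By group that ratio was 1.3 ± 0.266 (n = 5) and 1.76 ± 0.553 (n = 6) 1 day after saline and psilocybin, and 1.43 ± 0.563 and 1.42 ± 0.472 (n = 6 each) at 1 week. At 1 day it ran from 1.01 to 1.73 after saline and from 1.1 to 2.62 after psilocybin. The groups overlapped, and the ratio was not tested between them.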

How the data were processed

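Poly-A RNA of 23 prefrontal cortex samples, 1 per animal, was analysed from the table of expected counts that the authors deposited. Per the submitters' processing notes, the tools were fastp 0.20.0, STAR 2.6c and featureCounts 1.5.1, with the pig build susScr11. Per the file headers, reads overlapping several genes were split in fractions and strand was ignored, so reads of a gene and of an overlapping partner cannot be told apart. Of the deposited counts 72.2% were whole (tolerance 0). They were rounded, which changed a library's total by at most 0.001%. Symbols were found for 14857 of 25880 identifiers.

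Genes were kept by filterByExpr (minimum count 10, minimum total 15) and scaled by TMM. Differences were tested two-sided with the quasi-likelihood test of edgeR 4.0.16 (R 4.3.3), with a term for each group and for batch, and Benjamini-Hochberg adjustment over 15049 genes at 0.05. CPM use TMM-scaled totals, and log2 CPM a prior count of 2. Alternatives were RLE size factors, other filters, DESeq2 1.42.0, limma-voom (limma 3.58.1), a non-robust fit, no batch term, each batch alone, removal of 3 libraries standing apart and of each animal in turn. The models were tested on simulated data.

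The 7 genes and all lists were chosen with earlier results of these data known. The naming rule took all 7, their families and the 5-HT2 receptors, any called gene and the 2 smallest p per signalling list and time, and 3 genes most like each of the 7. Animals are numbered within groups in the order of their label numbers. The labels do not pair animals, and 0 numbers are shared between groups. Each animal is 1 library, and p-values measure the spread between animals. Sequences are not printed, and some related genes are not reported here.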

Additional observations from a re-analysis of the deposited data

Results flagged for a closer look

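In 28 sets of values (7 genes in 4 groups) the gap of the highest or lowest animal to its nearest neighbour was compared with Dixon's critical value, which chance exceeds in about 1 of 20 sets. Of these, 2 exceeded it. GRM7 was at 22.2 CPM in psilocybin animal 6 at 1 week, far below the other 5 animals of that group. GRIK3 was at 13.1 CPM in saline animal 5 at 1 week, far above the other 5. This check pooled the batches, and GRIK3 was higher in batch 2, to which that animal belongs. The other batch 2 animals of its group had 5.77 and 5.2 CPM, and the batch 1 animals 2.52, 3.55 and 1.93. The GRM7 animal is one of the 3 libraries with the highest scores on the leading principal component.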

How the results depend on the processing

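The count of the 7 genes called was the same in every alternative run for the 6 treatment and time comparisons, at 0. It was 4 between batches throughout, except 5 without the 3 libraries standing apart, where GRM2 was at 0.19. The log2 differences of uncalled genes changed sign as follows, and the cause was not tested. Without the 3 libraries, the 1 day values became -0.05 (GRM7), -0.08 (GRM8) and -0.06 (GRIK2), the 1 week value of GRIK2 -0.01, the differences between times -0.01 (GRM3), 0.07 (GRM7) and 0.05 (GRIK2), the averages -0.02 (GRM2), -0.01 (GRM7) and -0.03 (GRIK2), and the time values after psilocybin 0.02 (GRM2) and -0.03 (GRM3). In batch 1 alone they became -0.04 (GRIK2) at 1 day, 0.10 (GRM2) and -0.02 (GRM3) at 1 week, -0.05 (GRM3), 0.12 (GRM7) and 0.14 (GRIK2) for the difference, 0.01 (GRM8) for the average, 0.10 (GRM5) and -0.02 (GRM7) for time after saline and -0.04 (GRM3) for time after psilocybin. In batch 2 alone they became -0.06 (GRM8) at 1 day, -0.15 (GRM7) and -0.03 (GRIK2) at 1 week, -0.25 (GRIK3) for the difference, -0.12 (GRM2) and -0.06 (GRM7) for the average, 0.05 (GRIK2) and 0.12 (GRIK3) for time after saline, and -0.02 (GRM5), -0.11 (GRM7) and -0.13 (GRIK3) for time after psilocybin. Without a batch term GRM8 was at -0.02 at 1 day. For time after psilocybin, GRM3 was at -0.01 with RLE size factors and with DESeq2, and GRIK3 at -0.01 with limma-voom.

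Leaving out each animal in turn changed the sign of further uncalled values, whose ranges follow. At 1 day GRM7 ran from -0.05 to 0.11, GRM8 from -0.08 to 0.10 and GRIK2 from -0.06 to 0.13. At 1 week GRM7 ran from -0.09 to 0.13 and GRIK2 from -0.05 to 0.11. For the difference, GRM3 ran from -0.03 to 0.09, GRM7 from -0.13 to 0.08, GRIK2 from -0.10 to 0.10 and GRIK3 from -0.02 to 0.45. For the average, GRM2 ran from -0.03 to 0.07, GRM7 from -0.02 to 0.09 and GRIK2 from -0.01 to 0.08. For time after saline, GRM3 ran from -0.03 to 0.03, GRM5 from -0.23 to 0.04, GRM7 from -0.07 to 0.13, GRIK2 from -0.13 to 0.07 and GRIK3 from -0.38 to 0.04. For time after psilocybin, GRM2 ran from -0.10 to 0.01, GRM3 from -0.04 to 0.07, GRM7 from -0.05 to 0.10, GRIK2 from -0.10 to 0.03 and GRIK3 from -0.06 to 0.24. GRIK3 and GRM5 kept a positive psilocybin difference at 1 day, at 1 week and on average in all alternatives run, from 0.14 to 0.88 and from 0.02 to 0.53. GRIK3, with 22 to 262 counts per library, is the least precise. No paired analysis was possible because animal numbers are not shared between groups.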
